A study of Mus musculus with 2 samples.

Results

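Class I presentation was followed through 10 genes: H2-K1, H2-D1, B2m, Tap1, Tap2, Tapbp, Psmb8, Psmb9, Psmb10 and Erap1. They were taken as the rows of both deposited matrices whose gene symbol is 1 of these 10 names, and each name matched a single Ensembl identifier among the 56941 genes listed. All 10 were measured in both libraries, so none was lost to a filter on low values. The cells came from subcutaneous tumours of MC38, a mouse colon adenocarcinoma line, grown in C57BL/6 mice. Before injection the line had been transduced by lentivirus as a pool of cells, with SPP1 in 1 group and with the control vector in the other. SPP1 is osteopontin, a secreted glycoprotein. The labels give the genotype as WT for both groups, and both received antibody against PD-1 at 10 mg/kg, 2 doses per week for 2 weeks from day 7 after injection, so the 2 groups share the antibody and no tumour without it is compared. Tumour from 1 mouse per group was dissociated and sequenced as single cells, which gives 1 library per group. With 1 library per group there is no replicate spread, no test across samples is possible, and a difference between libraries cannot be told apart from a difference between 2 mice or 2 preparations.

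Class I molecules show fragments of a cell's own proteins to CD8 T cells. A heavy chain, encoded in C57BL/6 mice by H2-K1 and H2-D1, pairs with the light chain beta-2 microglobulin (B2m). Peptides are cut by the proteasome, in which interferon-inducible subunits (Psmb8, Psmb9, Psmb10) can replace the constitutive ones, and they are pumped into the endoplasmic reticulum by the Tap1 and Tap2 transporter. There tapasin (Tapbp) holds empty class I at the transporter and the aminopeptidase Erap1 trims peptides to length. Interferon gamma raises the transcription of most of these genes through Irf1 and the class I transactivator Nlrc5, among others, and tumours that lose them can escape CD8 T cells.

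The promoters are shown because the levels of these genes rose and fell together across the clusters described below. RefSeq windows of build GRCm38.p6, from 250 bases before to 50 bases after the start of transcription, were found for 9 of the 10 genes, Tap2 being the exception. The windows of Tap1 and Psmb9 overlap by 275 bases, since the genes lie head to head with starts 226 bases apart, and that of Tap1 is printed for both. H2-K1 has 2 windows in the table, of which the first is shown. Capitals mark 4 motifs, searched on both strands: AANNGAAA, the core bound by interferon regulatory factors; TTCNNNGAA, the interferon gamma-activated site; TGACG, the core of the X2 box and of cyclic AMP response elements; and GGGANNNNCC, an NF-kB motif whose matches on the 2 strands overlap each other.
H2-K1, chr17:34000298-34000597, minus strand: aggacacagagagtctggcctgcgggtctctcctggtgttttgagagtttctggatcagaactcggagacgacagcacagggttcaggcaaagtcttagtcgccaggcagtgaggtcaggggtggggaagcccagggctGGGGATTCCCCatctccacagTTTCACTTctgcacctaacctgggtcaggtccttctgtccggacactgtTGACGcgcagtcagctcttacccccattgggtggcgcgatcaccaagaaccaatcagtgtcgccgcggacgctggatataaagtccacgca
H2-D1, chr17:35262844-35263143, plus strand: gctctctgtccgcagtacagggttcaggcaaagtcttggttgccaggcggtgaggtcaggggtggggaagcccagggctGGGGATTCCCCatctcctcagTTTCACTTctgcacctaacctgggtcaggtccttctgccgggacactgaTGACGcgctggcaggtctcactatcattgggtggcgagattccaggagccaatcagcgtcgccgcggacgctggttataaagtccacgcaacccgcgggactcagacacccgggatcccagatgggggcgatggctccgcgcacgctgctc
B2m, chr2:122147437-122147736, plus strand: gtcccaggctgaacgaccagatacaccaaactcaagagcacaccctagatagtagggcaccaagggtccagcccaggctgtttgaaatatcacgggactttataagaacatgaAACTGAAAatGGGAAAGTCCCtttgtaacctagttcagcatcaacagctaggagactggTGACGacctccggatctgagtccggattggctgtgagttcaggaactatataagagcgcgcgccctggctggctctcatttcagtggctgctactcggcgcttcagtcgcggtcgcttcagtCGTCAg
Tap1, chr17:34187306-34187605, plus strand: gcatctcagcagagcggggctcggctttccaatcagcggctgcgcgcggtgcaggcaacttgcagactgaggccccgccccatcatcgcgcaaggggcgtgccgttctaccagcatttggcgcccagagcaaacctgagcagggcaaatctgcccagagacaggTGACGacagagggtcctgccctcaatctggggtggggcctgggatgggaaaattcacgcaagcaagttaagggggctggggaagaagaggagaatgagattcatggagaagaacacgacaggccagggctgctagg
Psmb8, chr17:34197945-34198244, plus strand: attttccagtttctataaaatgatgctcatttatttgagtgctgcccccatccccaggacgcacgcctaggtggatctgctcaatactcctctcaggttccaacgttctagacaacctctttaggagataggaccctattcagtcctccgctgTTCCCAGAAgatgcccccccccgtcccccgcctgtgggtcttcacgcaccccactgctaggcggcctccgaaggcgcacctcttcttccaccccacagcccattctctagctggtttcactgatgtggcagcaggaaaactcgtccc
Erap1, chr13:74639603-74639902, plus strand: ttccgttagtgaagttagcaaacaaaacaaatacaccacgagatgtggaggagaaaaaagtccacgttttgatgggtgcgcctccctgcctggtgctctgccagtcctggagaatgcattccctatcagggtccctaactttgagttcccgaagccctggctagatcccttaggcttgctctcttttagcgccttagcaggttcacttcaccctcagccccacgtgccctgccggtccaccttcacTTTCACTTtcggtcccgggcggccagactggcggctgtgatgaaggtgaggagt
The windows of Tapbp and Psmb10 held none of the 4 motifs and are not printed. The motif letters were chosen after the windows had been viewed. Of the 9 genes with a window, the first motif occurred in 4 (H2-K1, H2-D1, B2m and Erap1), against 23.9% of all 32851 windows. TTCNNNGAA was found in the window of Psmb8, against 8.3% of windows. The windows of H2-K1, H2-D1, B2m, Tap1 and Psmb9 held TGACG, which 20.8% of windows hold (Tap1 and Psmb9 through the same site in the bases they share), and those of H2-K1, H2-D1 and B2m held GGGANNNNCC, which 20.7% hold. H2-K1 and H2-D1 share a run of 47 identical bases in these windows. A match of letters is a description and not evidence that a factor binds there.

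The libraries held 14317 and 14029 barcodes with a median of 10277 and 10218 UMIs (unique molecular identifiers, 1 per captured transcript), where the value for the library labelled vector comes first, here and in every pair below. After filtering, 13893 and 13564 cells were kept, and 93 barcode sequences occurred in both libraries. The largest set of cells, 10152 and 10181 of them, carried no marker programme of a host cell type and had Hmga2 at 848 and 849 CPM (counts per 1000000 UMIs of the class). The epithelial markers that the label of a colon adenocarcinoma would call for were nearly absent from it: Krt8 reached 0.156 and 0.213 CPM, Epcam 0.0141 and 0.00712 CPM, and Cldn4 and Krt20 had no UMI. It is therefore called the compartment here. Spp1 was 133 and 126 CPM in the compartment, so the library labelled SPP1 did not carry more of it (log2 ratio -0.08, 95% interval -0.11 to -0.05), and every direction below refers to that label. Whether the transgene is of mouse or human sequence is not given in the sources used here. Host cells were fewer: 924 and 751 macrophage/monocyte-like, 44 and 23 dendritic cell-like, 75 and 50 CD8 T-like, 43 and 33 NK-like, 32 and 14 regulatory T-like and 18 and 22 endothelial-like cells. A cluster of 40 and 42 cells led by Igfbp5 carried stromal genes beside those of the compartment and is called the Igfbp5 stromal cluster. All intervals are at 95% and cover counting error only. Shares over all genes, given beside counts of members, are not matched on level. Genes with fewer UMIs have wider intervals and are called less often.

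Nearly every cell of the compartment carried class I heavy and light chain transcripts, and the peptide-loading genes were far less often caught. H2-K1 was found in 99.8% and 99.5% of compartment cells, H2-D1 in 99.3% and 99% and B2m in 99.9% of both. Tapbp was caught in 75.5% and 70.5% of cells, Psmb8 in 63.4% and 57.1%, Tap1 in 33.3% and 28.6%, and Tap2 in 28% and 24.2%. At an equal 5000 UMIs per cell, 6 of 9341 and 5 of 9385 cells had no heavy chain UMI (0.0642%, exact binomial interval 0.0236 to 0.14, and 0.0533%, 0.0173 to 0.124), and 3 and 0 had no B2m UMI, the count of 0 allowing up to 0.0393% by the exact interval. No separate population without class I transcripts was detectable at this depth. Per 5000 UMIs the 10 genes summed to a median of 45 UMIs per cell (5th to 95th percentile 16 to 92) in the first library and 36 (14 to 95) in the second.

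Macrophages carried more of most of the machinery than the compartment, by less than 2-fold. In macrophage/monocyte-like cells 9 of the 10 genes lay above the compartment in both libraries, the exception being Psmb10, against 21.4% of 14007 genes. No member passed 2-fold there in both libraries, a size that 11.9% of those genes reached. The median log2 ratio of the 10 genes was 0.38 and 0.40. B2m, the light chain, was 7605 and 7322 CPM in macrophage/monocyte-like cells and 4974 and 4562 CPM in the compartment, log2 0.61 (0.60 to 0.63) and 0.68 (0.67 to 0.70). The light chain thus differed more between these classes than the heavy chain H2-K1 did. H2-K1 was 2827 and 2316 CPM there against 2663 and 2169 CPM in the compartment, log2 0.09 (0.07 to 0.11) and 0.10 (0.07 to 0.12). The level of Tapbp was 221 and 187 CPM in macrophages and 166 and 142 CPM in the compartment.

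Free RNA from lysed cells can place a transcript in cells that do not make it, and its reach was gauged from macrophage markers. The 12 macrophage markers stood in the compartment at 0.128 to 1.12% of their macrophage level over both libraries, and the 10 class I genes at 58.9 to 116%. The class II genes Cd74 and H2-Aa, which some interferon-treated tumour cells also make, lay between, at 1.94 and 3.97% for Cd74 and 3.41 and 6.37% for H2-Aa.

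Among the rarer immune classes, dendritic cell-like and CD8 T-like cells had more Psmb8 and Psmb9 transcript than the compartment, but not clearly more Psmb10. Psmb8 was 296 and 395 CPM in dendritic cell-like cells, 235 and 328 CPM in CD8 T-like cells, and 107 CPM in the compartment of both libraries. Psmb9 was 234 and 322 CPM in dendritic cell-like cells and 166 and 262 CPM in CD8 T-like cells, against 88 and 85.5 CPM in the compartment. Psmb10 was 58.5 and 60.8 CPM in dendritic cell-like and 46.2 and 89 CPM in CD8 T-like cells, against 61.8 and 64.7 CPM. Its intervals against the compartment took in 0 in both classes and both libraries. NK-like cells also had more Psmb8 (153 and 240 CPM) and Psmb9 (145 and 144 CPM) than the compartment. Regulatory T-like cells had more Psmb9 (305 and 216 CPM). Dendritic cells take up and present antigen to naive T cells. In dendritic cell-like cells 6 of 10 genes (B2m, Tap1, Tap2, Psmb8, Psmb9 and Erap1) lay above the compartment in both libraries, against 7.43% of 13611 genes. In CD8 T-like cells these were H2-K1, B2m, Tap2, Psmb8 and Psmb9, against 6.99% of 13640 genes. Genes enter these shares by their UMIs in class and compartment together. A gene may have few UMIs in the small class, which makes a call less likely and lowers the share. Regulatory T-like cells, a class that dampens T cell responses, had the highest level of H2-K1 in both libraries, 5061 and 4988 CPM, and the highest of B2m, 9080 and 8374 CPM, but they number 32 and 14 cells.

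The stromal cluster led by Igfbp5 lay at the other end. It held the lowest H2-K1 (1432 and 910 CPM), H2-D1 (779 and 563 CPM), B2m (4560 and 3434 CPM), Psmb8 (62.7 and 34 CPM) and Psmb9 (32.4 and 9.71 CPM) of the 8 classes in both libraries. In it H2-K1, H2-D1, B2m, Psmb8 and Psmb9 lay below the compartment in both libraries, against 17% of 13651 genes. Psmb9 rested on 15 and 4 UMIs there, and the cluster was singled out after its values were seen. For Tap2, Psmb10 and Erap1 all 7 pairs of neighbouring classes in the order of levels had overlapping intervals in both libraries, so neighbours cannot be ordered for them. Psmb10 had no UMI in the 14 regulatory T-like cells of the library labelled SPP1, whose 32481 UMIs allow a level of up to 114 CPM by the exact interval.

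**Figure D1:**
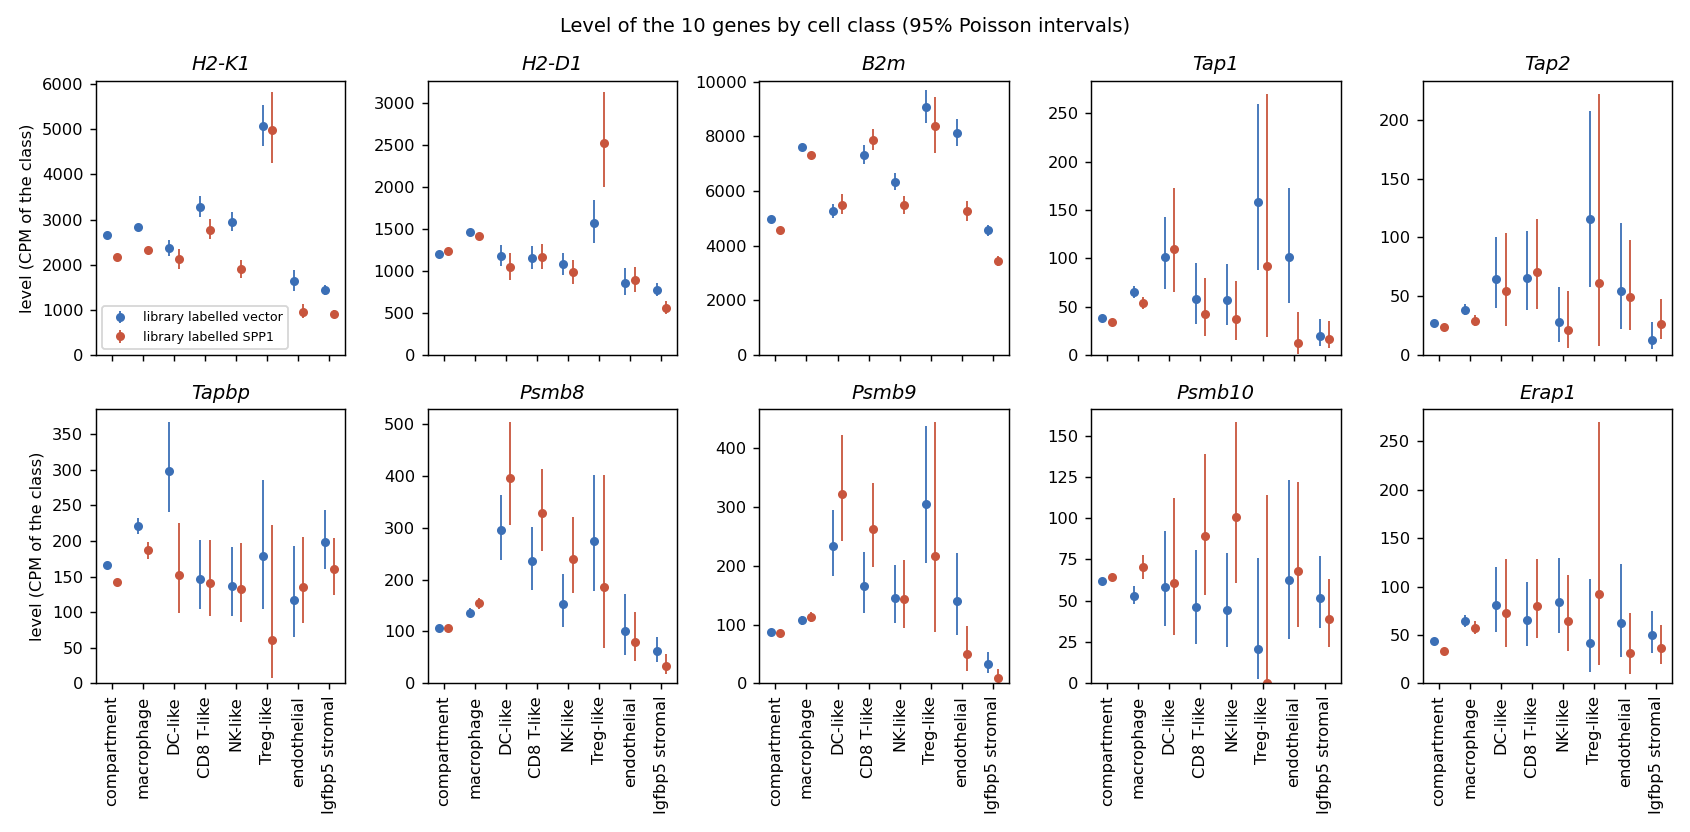
Level of each gene in CPM of the class (y axis, starting at 0) in 8 cell classes (x axis) for the 2 libraries, with 95% Poisson intervals. H2-K1, B2m, Psmb8 and Psmb9 are lowest in the Igfbp5 stromal cluster in both libraries, and the intervals widen in the small classes.

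The exchange of proteasome subunits was read as the UMIs of each interferon-inducible subunit over those of the constitutive subunit whose place it takes, and compared only between classes, since levels of different genes are not on 1 scale. For Psmb8 over Psmb5 the log2 ratio was 1.41 (1.37 to 1.46) and 1.26 (1.22 to 1.31) in the compartment. It was higher in macrophage/monocyte-like cells, at 2.56 (2.31 to 2.81) and 2.29 (2.05 to 2.53), and in dendritic cell-like cells, at 3.92 (2.75 to 5.41) and 3.70 (2.40 to 5.37). Psmb9 over Psmb6 kept the same order of these 3 classes: -0.53 and -0.81 in the compartment, 0.38 and 0.09 in macrophages, and 1.78 and 1.56 in dendritic cell-like cells. The third pair, Psmb10 over Psmb7, went from -0.79 and -0.80 in the compartment to -0.54 and -0.30 in macrophages, and was -0.69 and -0.77 in dendritic cell-like cells, with intervals that take in the compartment's values. In dendritic cell-like cells the constitutive subunit Psmb5 was counted 6 and 5 times, so the size of that ratio is loosely set.

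Within the compartment the level followed cell state. The clusters are described by number and leading genes. Because the 10 genes were among those clustered, differences between clusters are a description and not a test. Cluster 13, led by Gm12250, Iigp1, Cxcl10 and Gm4951 (321 and 253 cells), had the highest median, with all 10 genes above the other compartment cells in both libraries, against 7.24% of 13582 genes. Its median log2 ratio over the rest was 1.04 and 1.29. Tap1 was 107 and 127 CPM in it, 1.55 and 1.98 above the rest on the log2 scale, and Psmb9 was 215 and 275 CPM, 1.35 and 1.77 above. The chains stood out less: H2-K1, at 3608 and 3602 CPM, was 0.45 and 0.76 above, and B2m, at 6186 and 6832 CPM, was 0.33 and 0.60 above. Cluster 14, led by Ifit3, Ifit1, Ifit3b and Rsad2 (291 and 271 cells), came next, at a median of 0.69 and 1.09, again with all 10 genes above the rest, against 5.4% of genes. B2m peaked there, at 7477 and 8064 CPM. Cluster 6, led by Ppm1n, Gipc2, Trim69 and 1700024B18Rik (890 and 775 cells), was at a median of 0.36 and 0.45. Its log2 ratios for the 10 genes ran from 0.26 to 0.85 in the first library and from 0.10 to 0.86 in the second. These ratios carry no interval, and no share over all genes was counted for cluster 6. It had the highest H2-D1 of the first library, 1529 CPM. Interferon genes do not lead it, and its Irf1 stood at -1.09 and -0.78 from the rest. Cluster 6 held 7.4% and 6.65% of the cells counted, and 21.3% and 23.9% of the 5% with the most summed class I UMIs. Cluster 0, described below, held 26.6% and 13.4% of the cells and 23.3% and 31.9% of those top cells. B2m alone had a mean of 25.8 of 48.8 and 23.3 of 43.3 summed UMIs per cell, so the sum mostly ranks the chains.

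The 2 interferon-led clusters differed in regulators of class I, and these were not tested as its cause. Irf1, a transcription factor that interferon gamma induces, was 954 and 802 CPM in cluster 13 and 260 and 354 CPM in cluster 14. Nlrc5, the class I transactivator, was 261 CPM in cluster 13 of both libraries and 172 and 196 CPM in cluster 14. The constitutive subunits Psmb5, Psmb6 and Psmb7 lay between -0.53 and 0.00 of the rest in both clusters on the log2 scale.

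At the low end stood cells led by cancer-testis and stress genes. Cluster 10, led by Magea9, Gm12648, Pdgfc and Slfn9, had all 10 genes below the other compartment cells in both libraries, against 12.2% of genes, with a median log2 ratio of -1.23 and -0.99. Psmb9 was 10.6 and 17.8 CPM in it, Tap1 7.75 and 13.3 CPM, and H2-K1 1059 and 1234 CPM. It is mostly of 1 library, with 65 and 884 cells, as is cluster 5, led by Pcdh9, Magea9, Nrep and Gm12648, with 60 and 1647 cells and a median of -0.74 and -0.70. Cluster 9, led by Cryab, Edn1, Gdf15 and Gm11290 (370 and 681 cells), was at -0.74 and -1.08. Cryab is a small heat shock protein and Gdf15 a stress-induced cytokine. There Psmb9 stood at -0.72 and -2.02 from the rest and Psmb10 at -1.20 and -1.25, while B2m stood at 0.45 and -0.07.

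Transport and processing genes varied more between clusters than the chains did. From the lowest to the highest cluster Psmb9 spanned 20.3-fold and 15.4-fold, Tap1 13.8-fold and 13.4-fold, and Psmb10 8.49-fold and 9.17-fold. In the first library the lowest values of Psmb9 and Tap1 rested on 15 and 11 UMIs, and that of Tap2, which spanned 46.4-fold and 9.45-fold, on 2, so thin counts set these folds in part. H2-K1 spanned 3.41-fold and 3.03-fold, H2-D1 2.63-fold and 2.54-fold, and B2m 3.11-fold and 2.85-fold. Erap1, the trimming peptidase, spanned 3.68-fold and 4.05-fold, in the first library little more than H2-K1. Its lowest value there rested on 10 UMIs. Of the constitutive subunits, Psmb5 spanned 1.76-fold and 1.83-fold, Psmb6 1.73-fold and 1.53-fold, and Psmb7 3.37-fold and 1.9-fold. In the first library Psmb7 thus spanned about as much as H2-K1, with a lowest value that rested on 22 UMIs. Cycling cells sat near the middle: cluster 3, led by H1f5, Neil3, Esco2 and Pclaf, was at a median of -0.12 and 0.06, and cluster 4, led by Cdc20, Plk1, Cenpf and Aspm, at -0.13 and -0.06.

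**Figure D2:**
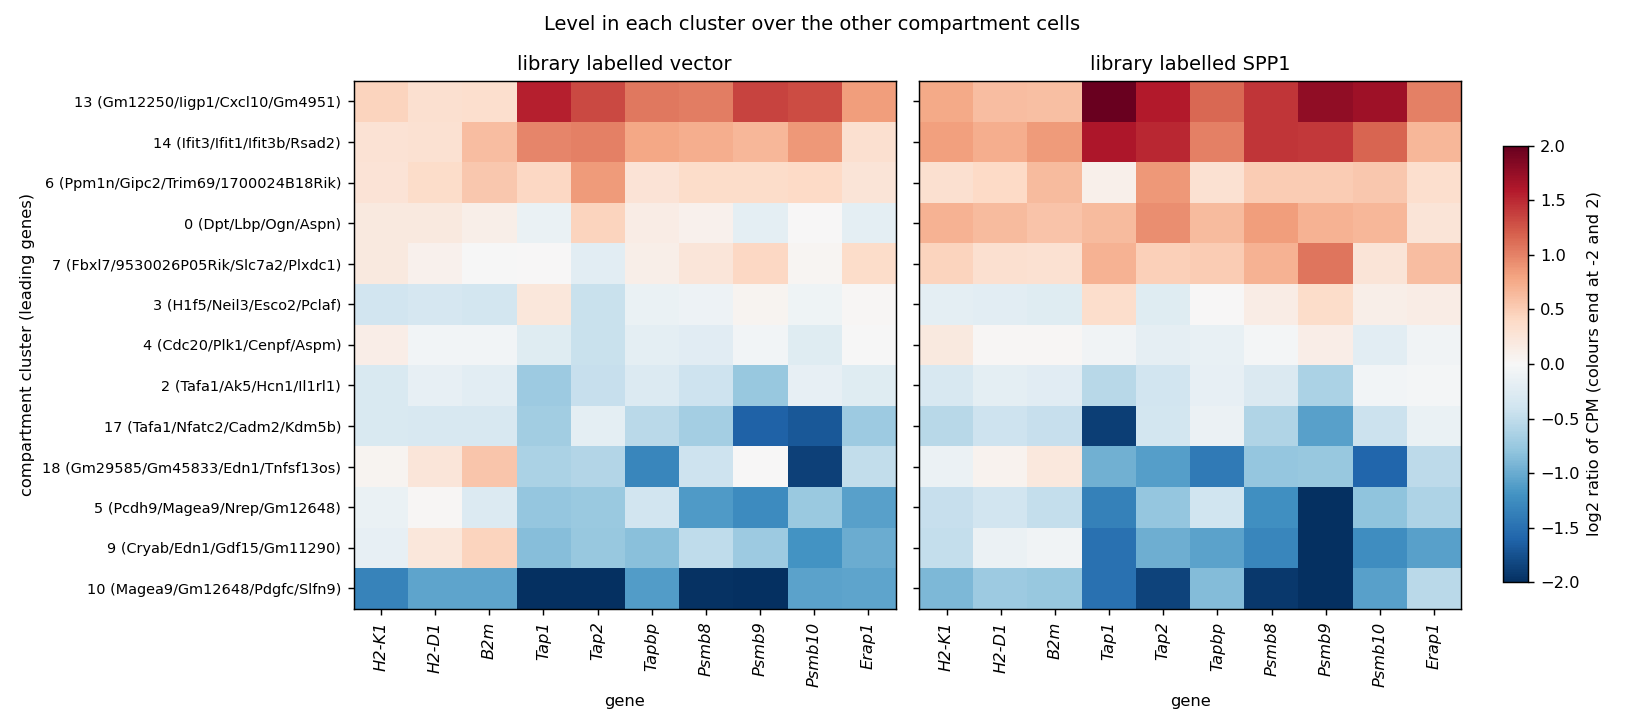
Log2 ratio of the CPM of each gene (x axis) in each compartment cluster (y axis, ordered by the median over genes) over the other compartment cells of the same library, with colours ending at -2 and 2. All 10 genes are above 0 in clusters 13 and 14 and below 0 in cluster 10 in both libraries.

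To see the states without the members themselves, cells were clustered again after the 10 genes and the other genes of the pathway lists had been left out of the variable genes. A single interferon-led cluster of 340 and 343 cells, led by Ifit3, Ifit1, Ifit3b and Rsad2, then took 53% of the cells of cluster 13 and 57.8% of those of cluster 14. All 10 genes were above the other compartment cells in it in both libraries, against 9.48% of 13592 genes, with a median log2 ratio of 1.00 and 1.42. Tap1 was 113 and 136 CPM in this cluster against 36.4 and 31.5 CPM in the rest. Psmb9 was 197 and 268 CPM against 85.1 and 80.5 CPM, and H2-K1 3673 and 3941 CPM against 2635 and 2118 CPM. Erap1 was 72 and 64.5 CPM against 42.6 and 33 CPM, log2 0.76 (0.58 to 0.93) and 0.97 (0.79 to 1.14).

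Macrophage clusters spanned a narrower range of medians. Among 6 clusters of macrophage/monocyte-like cells, the one led by Ccl8, Ccl12, Ms4a7 and Ch25h (137 and 76 cells) was highest, with a median log2 ratio over the class of 0.35 and 0.47. B2m was 11079 and 11092 CPM in it. The cluster led by Fcrls, F13a1, Gpr34 and Folr2, at -0.20 and -0.45, was lowest in both libraries and held 54 and 156 cells.

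Between the libraries, the compartment as a whole differed little in class I and in both directions. The interval of the log2 ratio lay below 0 for 7 of the 10 genes (H2-K1, B2m, Tap1, Tap2, Tapbp, Psmb9 and Erap1), against 29.9% of 15450 genes, and above 0 for 2 (H2-D1 and Psmb10), against 29.8%. The median over the 10 genes was -0.14, that over all genes -0.01, and ratios of 10766 well-measured genes (1000 UMIs or more) had a median absolute size of 0.115. No member passed 1.5-fold. Erap1 was 43.5 and 33.9 CPM, log2 -0.36 (-0.42 to -0.31). H2-K1 was 2663 and 2169 CPM, log2 -0.30 (-0.30 to -0.29). H2-D1, the other heavy chain, was 1208 and 1238 CPM, log2 0.04 (0.03 to 0.04). Tapbp differed by -0.23 (-0.26 to -0.20), and Psmb8 by 0.00 (-0.04 to 0.03).

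The direction depended on which cells were counted. Leaving out clusters 5 and 10, of which over 90% of cells came from the library labelled SPP1 (125 and 2531 cells in all), moved the median from -0.14 to 0.05. Then 3 genes lay below 0 (H2-K1, Tapbp and Erap1), against 26.9% of 15137 genes, and 6 above, against 30.1%. Psmb9 moved to 88.9 and 107 CPM, log2 0.26 (0.23 to 0.30), Psmb8 to 0.25 and Tap1 from -0.16 to 0.08. With each of 12 clusters weighing the same in both libraries the median was 0.09, Psmb10 stood at 0.30 and was higher in the library labelled SPP1 in 12 of 12 clusters, with an interval above 0 in 7, and H2-K1 was lower on average, at -0.15.

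**Figure D3:**
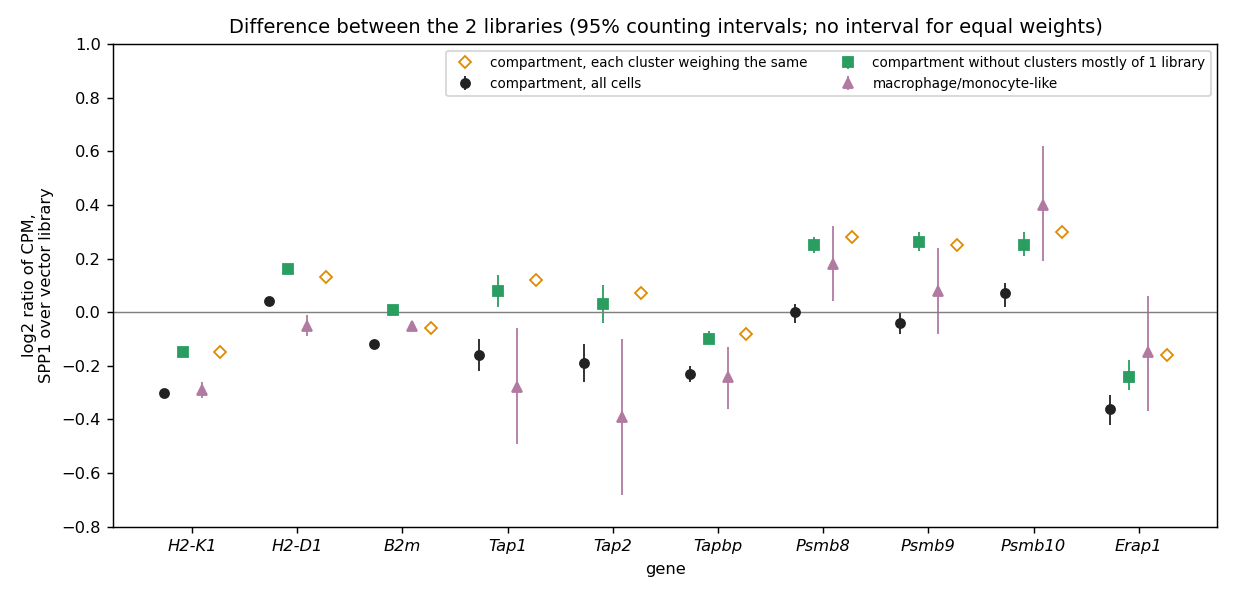
Log2 ratio of CPM, library labelled SPP1 over library labelled vector (y axis), for each gene (x axis) in the whole compartment, in the compartment without clusters 5 and 10, with equal cluster weights, and in macrophage/monocyte-like cells, with 95% counting intervals except for equal weights. H2-K1, Tapbp and Erap1 are below 0 in all 4, Psmb10 above 0 in all 4 (the macrophage interval of Erap1 reaches past 0), and B2m, Tap1, Tap2 and Psmb9 change side in the compartment.

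Single clusters went opposite ways. In cluster 0, led by Dpt, Lbp, Ogn and Aspn (2652 and 1349 cells), 9 of 10 genes were higher in the library labelled SPP1, all but Erap1, against 19.8% of 11368 genes, with a median of 0.36. Psmb9 was 78.6 and 130 CPM in it, log2 0.73 (0.64 to 0.81), and H2-K1 2955 and 3302 CPM, log2 0.16 (0.14 to 0.18). Cluster 7, led by Fbxl7, Slc7a2 and Plxdc1, had 8 higher, against 15.8% of 10728 genes. The interferon-led clusters 14 and 13 had 7 and 6 higher, against 10.6% and 10.3%. In cluster 9 the reverse held, with 8 of 10 lower, against 12.9% of 8541 genes, and Psmb9 at 53.9 and 21.9 CPM, log2 -1.30 (-1.61 to -0.99). Irf1 was 276 and 331 CPM in cluster 0, log2 0.26 (0.21 to 0.31), and 90.1 and 95.5 CPM in cluster 9, log2 0.08 (-0.11 to 0.28). Its part in the class I levels was not tested.

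The ratio of the heavy chains differed between the libraries in nearly every class. It was examined after the levels had been seen. The compartment held 2.21 and 1.75 H2-K1 UMIs per H2-D1 UMI, a log2 difference of -0.33 (-0.34 to -0.32). All 13 compartment clusters showed it, with differences from -0.48 to -0.22 and every interval below 0, including clusters 0 and 9, in which the chains themselves went opposite ways. Host cells showed it too: -0.24 (-0.29 to -0.18) in macrophage/monocyte-like cells, -0.50 (-0.83 to -0.17) in NK-like cells and -0.82 (-1.29 to -0.35) in endothelial-like cells. Among 10 classes (9 where the Igfbp5 stromal cluster is left within the mixed cells, to which it also belongs), dendritic cell-like cells were the exception, at 0.02 (-0.30 to 0.34), and the intervals of CD8 T-like cells and of the stromal cluster also reached past 0. H2-K1 alone was below 0 in the compartment (-0.30), in macrophage/monocyte-like cells (-0.29) and in T and NK-like cells (-0.32), the only 1 of 6 members with enough UMIs in all 3 to be so, against 5.01% of 2176 genes.

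H2-K1 and H2-D1 are close paralogs. In the GENCODE transcripts of GRCm38, 22.8% of the 31-base words of H2-K1 and 26.7% of those of H2-D1 also occur in other genes, 11.1% and 13.8% in each other, against none for B2m, Psmb9 and Psmb10. How reads that fit both were counted is not given in the sources used here, so the absolute level of either chain is uncertain. A shift that comes from the tumours, the mice or the preparation cannot be told apart here.

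**Figure D4:**
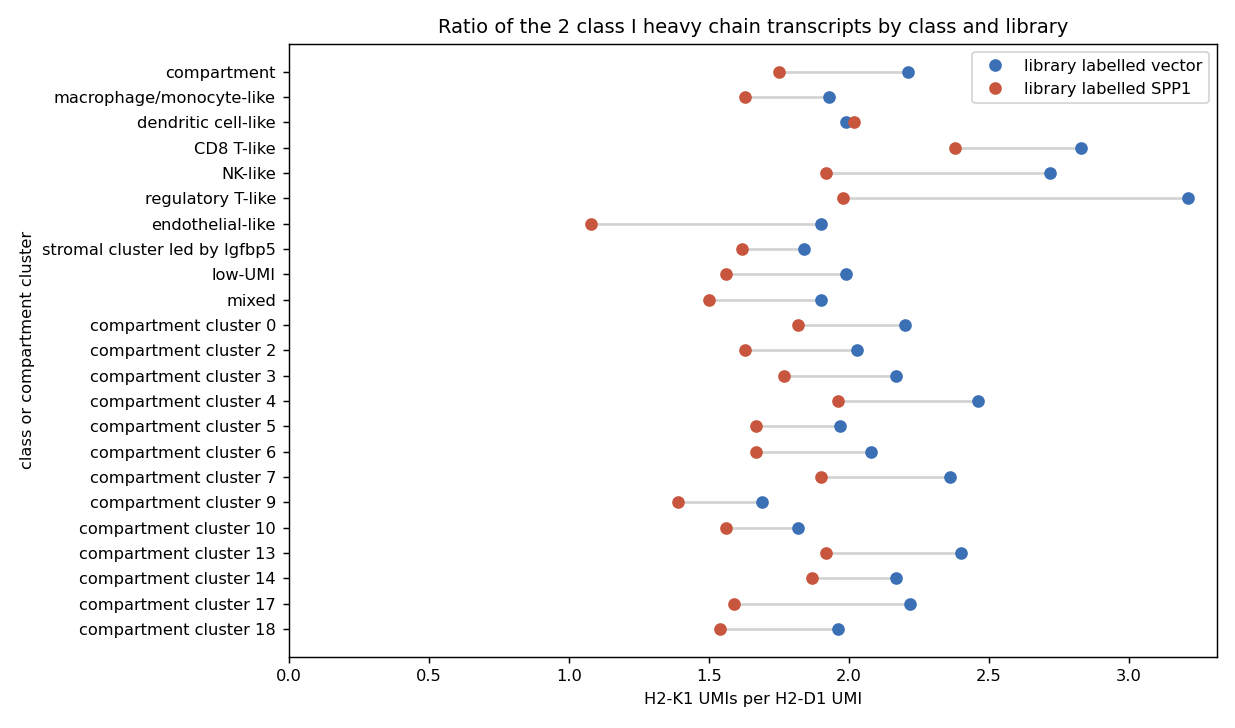
H2-K1 UMIs per H2-D1 UMI (x axis, starting at 0) in each class and compartment cluster (y axis) for the 2 libraries, joined by a line. The library labelled SPP1 is lower in all 13 compartment clusters and in 9 of 10 classes.

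In host cells the other members were split between directions. In macrophage/monocyte-like cells 6 of 10 had an interval below 0 (H2-K1, H2-D1, B2m, Tap1, Tap2 and Tapbp), against 17.4% of 8509 genes, and Psmb8 and Psmb10 had one above 0, against 14.6%. Psmb10 was 53.1 and 70.2 CPM, log2 0.40 (0.19 to 0.62), and Tap2 38.2 and 29.2 CPM, log2 -0.39 (-0.68 to -0.10). The median was -0.10. The libraries filled the 6 macrophage clusters unequally, with 54 and 156 cells in the lowest and 137 and 76 in the highest, and with equal cluster weights the median was -0.05, H2-D1 stood at 0.00, B2m at 0.04 and Tap1 at -0.09. In T and NK-like cells, of 6 members with at least 100 UMIs, H2-K1 was lower, against 15.1% of 2326 genes, and Psmb8 higher, at 215 and 285 CPM, against 9.85%. Psmb10, which had fewer UMIs, was 41.4 and 77.1 CPM, log2 0.90 (0.17 to 1.63).

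Other genes of the pathway, counted from lists, went both ways, and over all genes 29.9% were lower and 29.8% higher, so that most of these counts lie near the background. Of 10 measured class I-like heavy chain genes outside the members 4 were lower and 2 higher in the compartment of the library labelled SPP1, with H2-T22, a nonclassical chain, at 81.7 and 80.6 CPM, log2 -0.02 (-0.06 to 0.02). Of 10 loading factors and chaperones 3 were lower and 4 higher, with Calr, the chaperone calreticulin, at 319 and 376 CPM, log2 0.23 (0.22 to 0.25), and Pdia3, its partner, at 213 and 247 CPM. All 3 constitutive catalytic subunits were higher, Psmb6 by 0.24 (0.21 to 0.27). Of 14 genes in the transcriptional control list 9 were lower and 3 higher, with a median of -0.13. Among them Nlrc5 was 90.8 and 70.2 CPM, log2 -0.37 (-0.41 to -0.33), and Irf1 227 and 199 CPM, log2 -0.19 (-0.21 to -0.17). Without clusters 5 and 10 Nlrc5 was at -0.15 (-0.19 to -0.11) and Irf1 at 0.00 (-0.03 to 0.02). By their intervals within the 13 clusters, Nlrc5 was higher in 2 and lower in 8, and Irf1 was higher in 4 and lower in 1. Of 12 receptor and signalling genes 5 were lower and 3 higher, with Ifngr1, a chain of the interferon gamma receptor, at 57 and 53.9 CPM, log2 -0.08 (-0.13 to -0.04), and Ifngr2, the other chain, at 18.3 and 22.7 CPM, log2 0.32 (0.24 to 0.39). Of 15 interferon-induced genes outside class I 8 were lower and 5 higher, with Gbp2, a guanylate-binding protein, at -0.39 (-0.41 to -0.36) and Cxcl10, a chemokine for T cells, at -0.10 (-0.12 to -0.08), while Cxcl9, a related chemokine, was at 0.45 (0.40 to 0.51) and Rsad2, an antiviral enzyme, at 0.55 (0.44 to 0.65). Proteasome core and activator genes split evenly, 8 lower and 8 higher of 17, and cytosolic peptidases 3 and 2 of 6.

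Across single compartment cells the 3 chain genes varied together, and pairs with the sparser processing genes had lower correlations. Cells were reduced at random to 5000 UMIs each, so that depth was equal, which kept 9341 and 9385 cells and left out 811 and 796 shallower ones. Cells of 1 library share its preparation, so correlations are given as a description with no p. H2-K1 and B2m had a Pearson correlation of log counts of 0.62 and 0.66, H2-K1 and H2-D1 of 0.55 and 0.59, and H2-D1 and B2m of 0.52 and 0.60. The median over the 45 pairs was 0.14 and 0.20, from 0.03 to 0.62 and from 0.05 to 0.66. Counts of the processing genes are sparse at this depth, with Tap1 at a mean of 0.198 and 0.176 UMIs per cell, and weak correlations in such counts are not read further. As a yardstick, the members correlated with the 3 constitutive catalytic subunits at a median of 0.01 in both libraries and with interferon-induced genes outside class I at 0.13 and 0.20.

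The gradient is plainer as levels. Between the lowest and the highest 20% of cells by the sum of the other 9 genes, mean Psmb9 went from 0.179 to 0.793 UMIs per cell in the first library (4.44-fold) and from 0.0976 to 1.08 in the second (11.1-fold). Tap1 differed 3.88-fold and 6.14-fold over the same split, and Psmb8 2.94-fold and 5.51-fold. Erap1 differed least, at 1.64-fold and 2.18-fold. Within single clusters the median correlation of the pairs was 0.10 in both libraries, and leaving out both interferon-led clusters it was 0.18 in the library labelled SPP1. In macrophage/monocyte-like cells, at 2000 UMIs, the median was 0.03 and 0.07, and the chains again stood above it, with H2-K1 and B2m at 0.27 and 0.44.

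**Figure D5:**
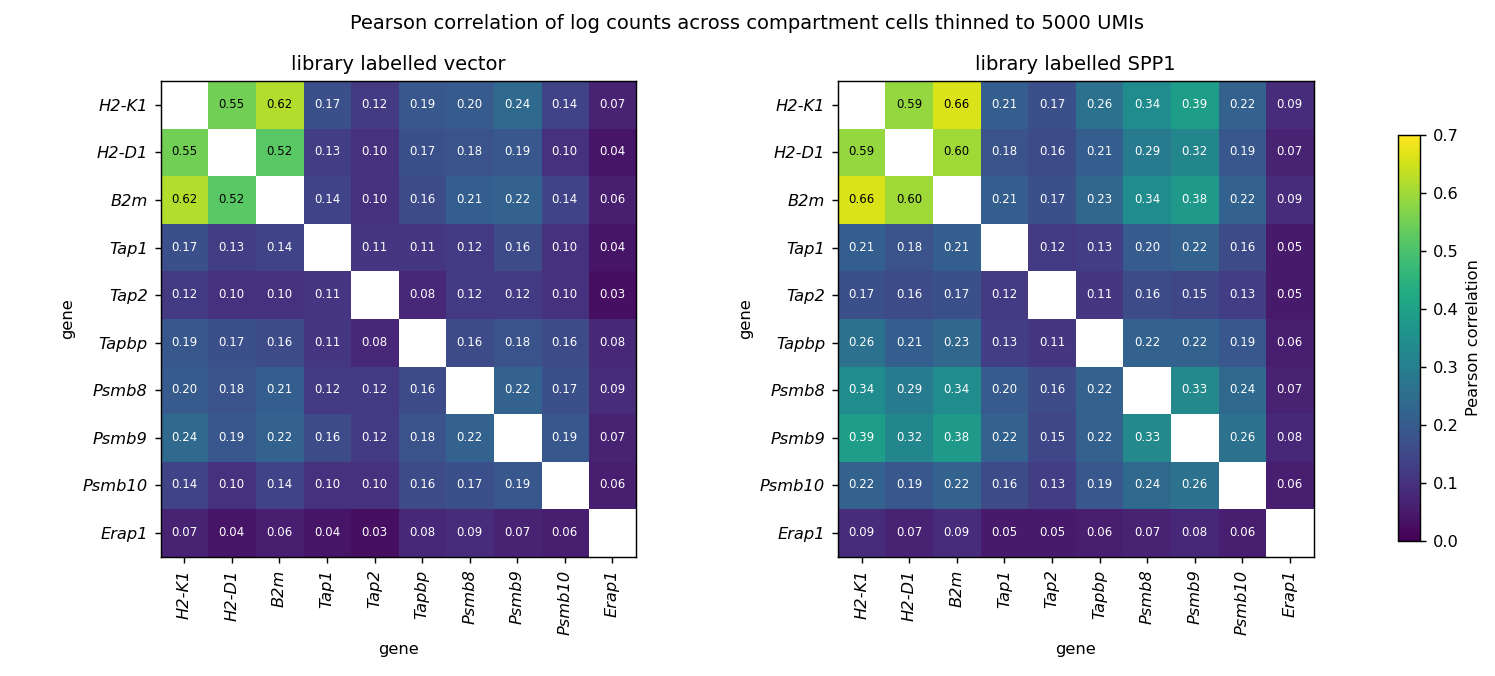
Pearson correlation of log counts for each pair of genes (both axes) across 9341 and 9385 compartment cells thinned to 5000 UMIs, in the libraries labelled vector and SPP1. The block of H2-K1, H2-D1 and B2m lies between 0.52 and 0.66 and the row of Erap1 at or below 0.09 in both.

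The genes most like the members were sought across clusters and across cells. Over 25 library-by-cluster points of at least 50 cells, which share libraries, the 8 of 9273 genes whose level followed the mean of the members most closely were Irgm2 (Pearson 0.979), Gbp7 (0.972), Gbp2, Iigp1, Gm4951, Psme1, Serpina3g and Tgtp2 (0.942). Irgm2, Iigp1 and Tgtp2 are interferon-inducible GTPases and Psme1 is a subunit of the proteasome activator PA28. Across single cells of fixed depth the 8 were Ly6c1 (0.39 and 0.50 with the summed members), Ly6a, H2-Aa, Cd74, H2-Eb1, H2-Ab1, Ifitm3 and Gbp2. H2-Aa, H2-Eb1, H2-Ab1 and Cd74 belong to class II presentation. The compartment's share of the macrophage level of Cd74 and H2-Aa was given above, and the part of free RNA in these correlations was not tested.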

How the data were processed

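Single-cell RNA from 2 mouse tumours was measured, 1 library per group. The authors deposited raw UMI counts per gene and barcode, not normalized, and the values are whole numbers; the deposited gene and barcode lists, of other content, hold names only. Cell Ranger 2.1.1 and, as genome build, GRCm39 appear per the submitters' processing notes, which give them no role. Neither chemistry, strand setting nor the treatment of reads matching several genes was given in the sources used here. The RefSeq promoter table is of another build, GRCm38.p6, so its coordinates are given for the printed windows alone.

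The filter of 300 or more genes, 500 or more UMIs and up to 15% of UMIs from mitochondria passed 14243 and 13956 cells. Doublets were predicted by Scrublet's method, written anew, and removed (350, 2.46%, and 392, 2.81%). Counts scaled to 10000 were logged and reduced to 30 components of 2000 variable genes, and 20 neighbours were clustered by the Leiden method at resolution 1 (leidenalg 0.10.2, scikit-learn 1.9.0). Clusters were named from 14 marker lists, a marker counting as raised at 10 CPM and a log2 ratio of 1. Low-UMI clusters (2248 and 2137 cells) and clusters that also carried the compartment's genes (mixed, 337 and 340 cells) stayed unnamed, but 1 of them, led by Igfbp5, is also described apart, a choice made after its values were seen.

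UMIs were summed per class and library as CPM, with exact Poisson intervals for CPM, exact conditional binomial intervals for log2 ratios, exact binomial intervals for shares and log intervals for the ratio of 2 ratios, all at 95% (scipy 1.17.1). The background is the share of genes with at least 100 UMIs in the cells compared that met the same condition. It was not matched to the members' levels, so a larger share of members called may partly reflect their UMI counts. Intervals were tested on simulated counts that held counting error alone. That check cannot show whether they cover variation between cells, clusters or mice. The members, lists and naming thresholds were chosen with earlier results of these data known, the motif letters after the windows had been viewed, and clusters 0, 7, 9, 10, 13 and 14 were singled out after their values were seen. All 10 members are named; a list gene could be named at 50 CPM or more in the compartment or in macrophages; the 8 most alike genes had at least 1000 UMIs per library; clusters are named by their 4 leading genes by fold at 50 CPM or more. Alternatives covered doublets, filters, resolution, left-out clusters, thinning, scaling and weighting.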

Additional observations from a re-analysis of the deposited data

How the results depend on the processing

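The number of libraries is the main limit: each group has 1, so no replicate could be left out and no difference can be set against biological spread. No paired analysis was possible because each group has 1 library. The median log2 ratio of the 10 genes in the compartment ranged from -0.23 to 0.09 over 11 alternatives. It reversed to 0.05 without clusters mostly of 1 library and to 0.09 with equal cluster weights, and was -0.23 with each cell thinned to 1000 UMIs. The number of genes lower in the compartment was 3 without clusters mostly of 1 library and could not be counted for the mean over cells or equal weights, which give no interval. Without those clusters B2m turned to 0.01, Tap1 to 0.08, Tap2 to 0.03 and Psmb9 to 0.26, and with equal weights Tap1 turned to 0.12, Tap2 to 0.07 and Psmb9 to 0.25. H2-K1 stayed negative, from -0.32 to -0.15, as did Tapbp (-0.35 to -0.08) and Erap1 (-0.55 to -0.16), while H2-D1 (0.01 to 0.16) and Psmb10 (0.06 to 0.30) stayed positive. The median pair correlation fell to 0.07 and 0.10 at 2000 UMIs, was 0.10 and 0.10 within single clusters, and was 0.18 in the library labelled SPP1 without both interferon-led clusters, an alternative chosen after seeing the data. The medians in macrophage/monocyte-like cells, in T and NK-like cells and of macrophages over the compartment moved by less than their counting intervals under each of 10, 9 and 7 alternatives, 1 of them (equal macrophage cluster weights) also chosen after seeing the data. The causes were not tested.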
